A study of Mus musculus with 9 samples.

Results

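A set of 10 genes of the FGF-ERK pathway was followed in RNA-seq of mouse embryonic stem cells (ESCs) that carry mutations in *Rbbp4*, which encodes a histone-binding subunit of the Polycomb repressive complex PRC2 and of several histone deacetylase complexes. They are the ligand *Fgf4*, the receptors *Fgfr1* and *Fgfr2*, the feedback inhibitors *Spry2*, *Spry4*, *Spred1*, and *Dusp6*, and the transcription factor genes *Etv4*, *Etv5*, and *Egr1*, and were chosen by name. These genes, and the wider gene lists used below, were chosen with earlier results of these data known. The count files held 25239 gene symbols, the 10 genes among them, and all 10 were among the 14125 genes with enough reads to be tested. RNA was sequenced from control E14 ESCs (genotype Rbbp4+/+), from Rbbp4 Ins/Ins ESCs, and from Rbbp4 Ins/Del ESCs, with 3 libraries for each line. Ins/Ins carries a small in-frame insertion on both *Rbbp4* alleles, and Ins/Del carries the same insertion on 1 allele and a small in-frame deletion on the other. Each mutant line grew from 1 CRISPR-Cas9 clone, so genotype and clone cannot be told apart. The strain of all lines is labelled 12910la, and the cells grew in serum-containing medium with leukemia inhibitory factor, under which ESCs self-renew, and no sample was treated otherwise.

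As background, ESCs make and release FGF4, which binds FGF receptors together with heparan sulfate on the cell surface. The receptors act through adaptor proteins, RAS, RAF, and MEK on the kinase ERK, whose activity prepares ESCs to leave self-renewal and, in the blastocyst, turns inner cell mass cells toward primitive endoderm. Active ERK raises transcription of ETS factors such as *Etv4* and *Etv5*, of the immediate early gene *Egr1*, and of inhibitors that dampen the pathway again, the Sprouty proteins, the Spred proteins, and the ERK phosphatase encoded by *Dusp6*.

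Of the 10 genes, *Fgf4* and *Etv4* rose in both mutants, and 7 fell in both: both receptors, 3 of the 4 inhibitors (*Spry2*, *Spred1*, and *Dusp6*), *Etv5*, and *Egr1*. *Spry4* fell in Ins/Ins and did not pass the test in Ins/Del. The level of *Etv4* was 2.34-fold the control level in Ins/Ins and 3.30-fold in Ins/Del, and that of *Fgfr2* fell by 46.0% in Ins/Ins and fell by 62.4% in Ins/Del. A gene was called when edgeR's quasi-likelihood test gave a Benjamini-Hochberg adjusted p of at most 0.01 over all tested genes. Most of the transcriptome passed that threshold: 58.4% of tested genes were called in Ins/Ins against control (29.0% higher and 29.4% lower) and 62.5% in Ins/Del against control (30.6% higher and 31.9% lower). Of the 10 genes, 2 were called higher and 8 lower in Ins/Ins, and 2 higher and 7 lower in Ins/Del. Over the tested genes, 25.6% were called higher in both mutants and 26.7% lower in both. The median log2 fold change of the 10 genes was -0.73 in Ins/Ins and -0.58 in Ins/Del, beside medians of 0.0038 and -0.011 over all tested genes, whose median absolute change was 0.304 and 0.342. Between the mutants, where 10.8% of tested genes were called (6.17% higher and 4.64% lower in Ins/Del), 4 of the 10 genes were higher in Ins/Del (*Fgf4*, *Spry4*, *Dusp6*, and *Etv4*) and 1 was lower (*Fgfr2*). Both mutants were compared with the same 3 control libraries, and the sources do not say whether the 3 libraries of a line came from separate cultures, so the p-values measure only the spread between these libraries.

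**Figure D1:**
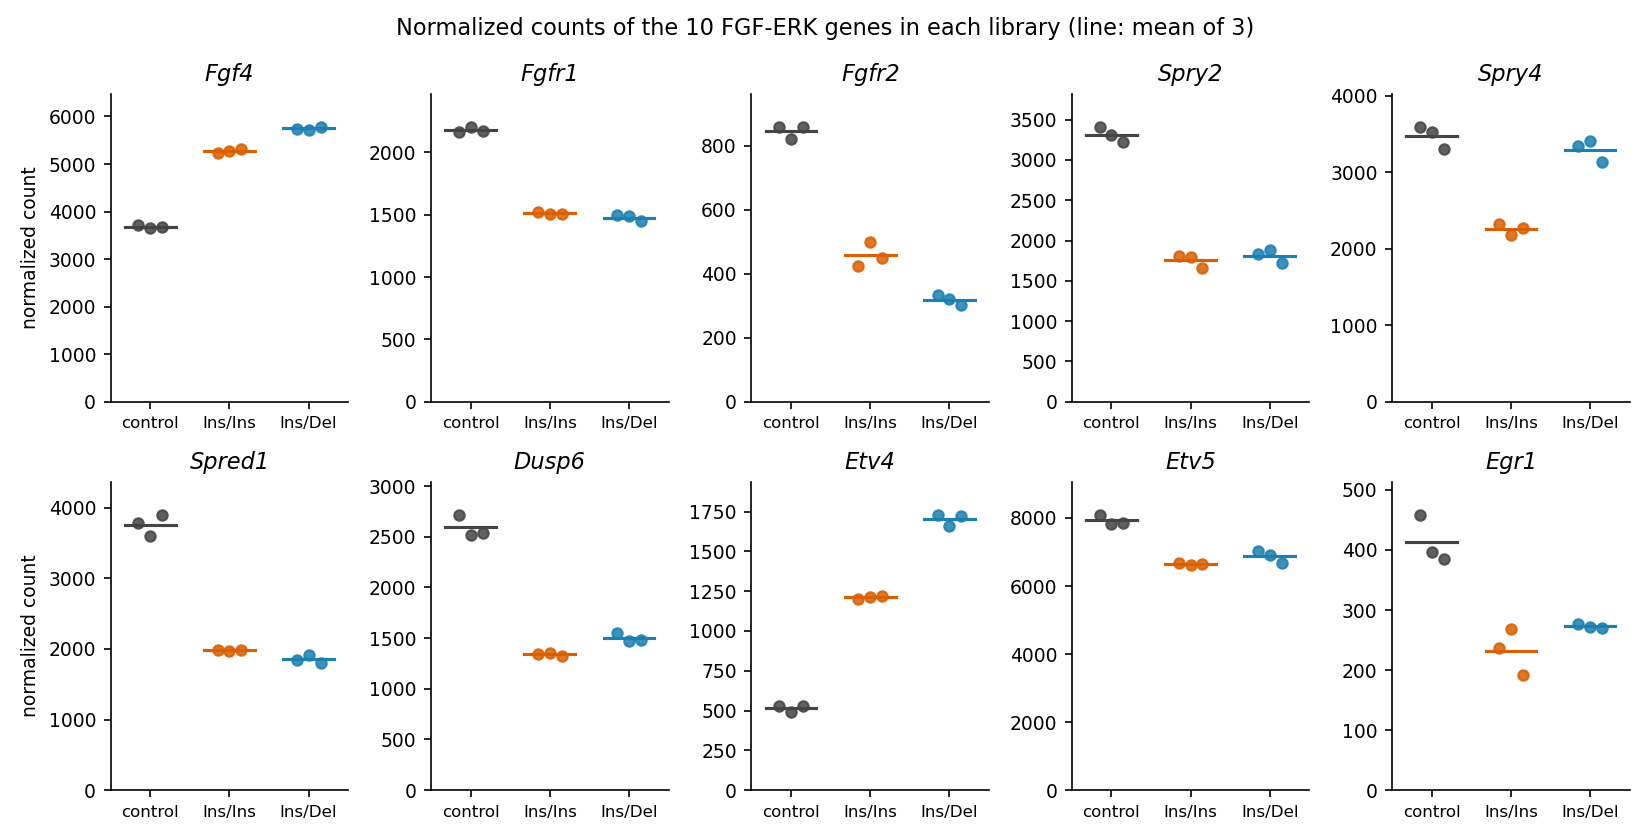
Normalized counts (vertical axes, starting at 0) of the 10 genes in each of the 3 libraries of control, Ins/Ins, and Ins/Del. Each point is 1 library and each line is the mean of 3. *Fgf4* and *Etv4* rise from control to Ins/Ins to Ins/Del, and *Spry4* is the gene whose control and Ins/Del points overlap.

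Several facts of the series as a whole bear on these values. Each library held 15838064 to 21366868 counted reads, and the biological coefficient of variation was 0.0286. Normalized counts of the targeted gene *Rbbp4* were 9932, 9965, and 10117 in control, 5485, 5551, and 5776 in Ins/Ins, and 10129, 10344, and 10603 in Ins/Del. It was called lower in Ins/Ins (log2 fold change -0.84) and was not called in Ins/Del (log2 fold change 0.05, adjusted p = 0.107). Such gene-level counts do not read the edited bases. The ESC markers were all expressed, and their summed level was 93576 to 98014 normalized counts in control, 113921 to 115938 in Ins/Ins, and 113226 to 115986 in Ins/Del, with *Nanog*, *Zfp42*, *Esrrb*, and *Dppa5a* called higher in both mutants and *Utf1* called lower in both. Summed markers of other cell types were lower in both mutants, though for primitive endoderm most of the control sum came from *Dab2*. The sum for fibroblasts and feeder cells went from 3350–3662 in control to 355–401 in Ins/Ins and 401–449 in Ins/Del (6 of 7 tested genes lower in both, *Thy1* higher, *Lum* at or under 3 reads in every library). That for epiblast and primitive streak went from 3322–3698 to 920–982 and 695–747 (4 of 6 lower in both, *Fgf5* among them, *Eomes* higher, *Mesp1* and *Nkx1-2* at or under 3 reads), that for neural progenitors from 2554–2566 to 411–442 and 383–415 (2 of 3 lower in both, *Olig2* and *Neurog2* at or under 3 reads), that for trophectoderm from 3816–4225 to 1018–1124 and 778–877 (4 of 7 lower in both), and that for primitive endoderm from 371–399 to 210–276 and 316–349 (*Dab2* and *Gata4* lower and *Sox7* higher in both, and *Gata6*, *Sox17*, and *Pdgfra* called higher in Ins/Del). In the primitive endoderm list, *Dab2* went from 265 normalized counts in control to 104 in Ins/Ins and 109 in Ins/Del. The call on *Gata4* in Ins/Del was lost without control library 2 (adjusted p = 0.0144, edgeR). The list's median log2 fold change was 0.13 in Ins/Ins and 1.01 in Ins/Del, with 4 of 6 tested genes higher in Ins/Del, so its sum does not stand for its genes. The marker sums and the 10 genes both differed between control and mutants, and the part of the marker changes in the calls was not tested. Nor was the part in these sums of the shift on chromosome 14, given below with *Spry2*. In bulk RNA, fewer cells of a type and less RNA per cell cannot be told apart.

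**Figure D2:**
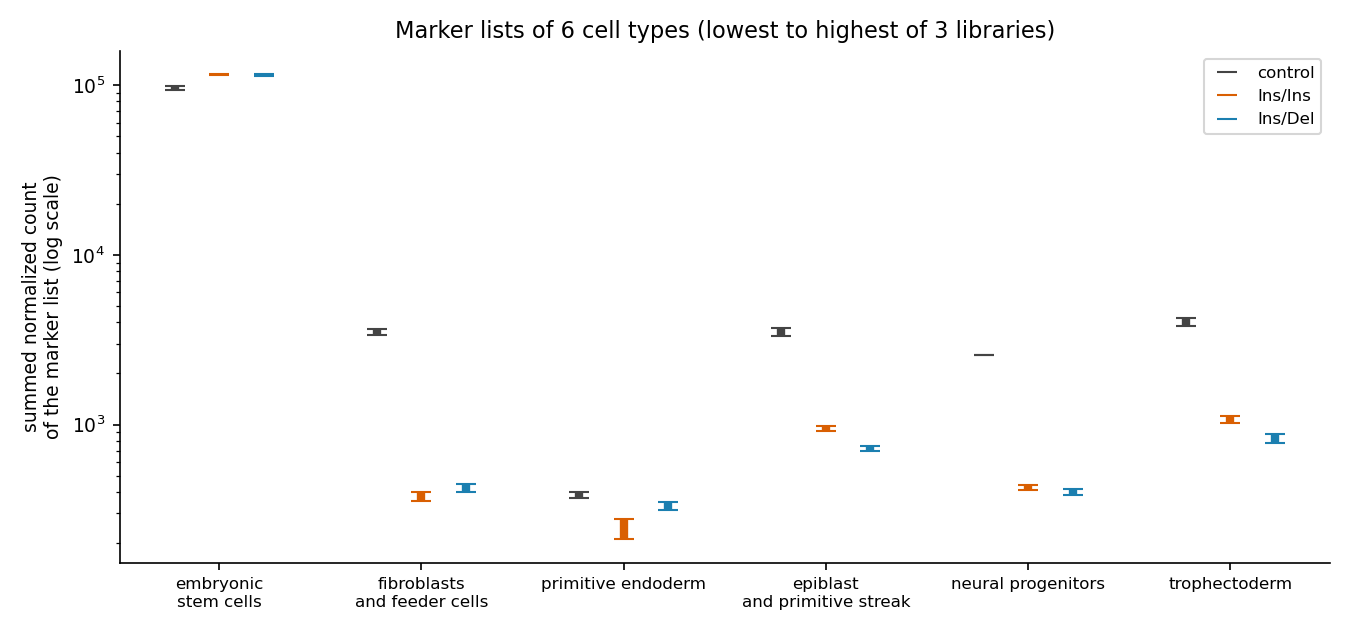
Summed normalized counts of 6 marker lists (vertical axis, log scale), with the lowest and highest of the 3 libraries of each line joined by a bar. The ESC list is highest in every line and higher in both mutants than in control, and the lists of fibroblasts and feeder cells, epiblast and primitive streak, neural progenitors, and trophectoderm are lower in both mutants.

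The RefSeq promoter table held a start for 6 of the genes: *Fgf4*, *Fgfr2*, *Spry2*, *Spred1*, *Dusp6*, and *Etv5*. The 250 bases before the start of *Fgf4*, the ligand gene that rose, and of *Spred1* and *Dusp6*, the inhibitors among the 10 genes with the largest fall in Ins/Del and in Ins/Ins, are given from RefSeq on GRCm38.p6, read 5′ to 3′ on the strand of the gene (chr7:144861136-144861385, plus strand; chr2:117120821-117121070, plus strand; chr10:99262981-99263230, plus strand). Capitals mark the GC box GGGCGG or its reverse complement CCGCCC.
*Fgf4*: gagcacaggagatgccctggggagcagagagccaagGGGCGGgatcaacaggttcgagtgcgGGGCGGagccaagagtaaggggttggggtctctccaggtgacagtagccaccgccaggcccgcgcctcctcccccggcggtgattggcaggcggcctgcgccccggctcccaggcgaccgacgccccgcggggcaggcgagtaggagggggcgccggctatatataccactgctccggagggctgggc
*Spred1*: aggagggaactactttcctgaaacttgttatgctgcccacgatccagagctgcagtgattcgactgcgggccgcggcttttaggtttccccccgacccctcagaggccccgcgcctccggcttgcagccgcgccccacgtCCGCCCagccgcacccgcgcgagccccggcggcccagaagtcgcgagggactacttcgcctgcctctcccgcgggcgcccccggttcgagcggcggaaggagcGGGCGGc
*Dusp6*: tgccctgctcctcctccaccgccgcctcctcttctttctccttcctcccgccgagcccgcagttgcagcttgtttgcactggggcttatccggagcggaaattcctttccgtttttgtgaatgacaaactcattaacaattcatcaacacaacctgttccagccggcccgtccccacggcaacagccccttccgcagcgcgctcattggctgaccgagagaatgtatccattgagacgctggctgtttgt

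On either strand, the GC box was found in 3 of the 6 promoters, with 2 matches in *Fgf4* (starting 214 and 188 bases before the start), 2 in *Spred1* (110 and 7 bases), and 3 in *Etv5* (215, 99, and 55 bases). It was present in 33.0% of the 27025 promoters of that length in the table and in 59.3% of the 11125 promoters of tested genes. The ETS motif CCGGAAG (in 7.07% of all promoters and 13.4% of those of tested genes), the cyclic AMP response element TGACGTCA (1.60% and 2.64%), and the AP-1 site TGACTCA (4.43% and 2.88%), searched on both strands, had no match in these 6 windows. Each motif was searched as that exact string, so other forms of these sites were not counted. No motif searched holds another. Among the 6 promoters, GC content was highest in *Fgf4* and *Etv5* (71.2% each) and *Spred1* (70.8%), followed by *Spry2* (62.4%), *Dusp6* (56.4%), and *Fgfr2* (44.0%), with a median of 52.0% over the table. *Fgf4* was the 1 gene of the 6 that rose, and of the 5 that fell in both mutants, *Spred1* and *Etv5* held the GC box and *Fgfr2*, *Spry2*, and *Dusp6* did not.

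The 10 genes lie on 8 chromosomes of the mouse build GRCm38.p6 (mm10). Positions were *Fgf4* chr7:144861386-144865245, *Fgfr1* chr8:25518759-25575718, *Fgfr2* chr7:130162451-130266808, *Spry2* chr14:105891947-105896819, *Spry4* chr18:38586247-38601347, *Spred1* chr2:117121071-117182279, *Dusp6* chr10:99263231-99267489, *Etv4* chr11:101769747-101785310, *Etv5* chr16:22381313-22439570, and *Egr1* chr18:34861207-34864956. *Fgf4*, *Fgfr1*, *Spred1*, *Dusp6*, and *Egr1* are transcribed from the plus strand and the others from the minus strand. Reads were counted over exons, and the strand setting is not given in the sources used here. *Fgfr1* shares 1.66% of its exon length with Gm16159 on the opposite strand, *Fgfr2* shares 3.04% with *Ctbp2* on the same strand, and the other 8 genes share none in GENCODE M21.

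*Fgf4* encodes the FGF ligand of the inner cell mass and of ESCs. Its normalized counts were 3725, 3659, and 3670.2 in control, 5229.6, 5282, and 5309 in Ins/Ins, and 5732, 5721, and 5789 in Ins/Del. Every Ins/Ins library lay above every control library, and every Ins/Del library above every Ins/Ins library. The mean rose from 3685 ± 35.3 (SD, n = 3) to 5274 ± 40.3 (SD, n = 3) in Ins/Ins, by 1.43-fold (log2 fold change 0.52, SE 0.0293, adjusted p = 1.9e-18, edgeR). It rose to 5747 ± 36.5 (SD, n = 3) in Ins/Del, by 1.56-fold (log2 fold change 0.64, SE 0.0292, adjusted p = 1.4e-21, edgeR). *Fgf4* was thus one of the 2 genes of the 10 that went up while most of the receptor and inhibitor genes went down. The difference between the mutants was small, 1.09-fold (log2 fold change 0.12, SE 0.0285, adjusted p = 0.00159, edgeR), and did not pass the threshold without Ins/Del library 3 (adjusted p = 0.0121) or without Ins/Ins library 1 (adjusted p = 0.0106).

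*Fgfr1* encodes the main FGF receptor of ESCs. It had 2162, 2208, and 2169.7 normalized counts in control, 1522, 1509, and 1503 in Ins/Ins, and 1495, 1488, and 1446 in Ins/Del. All 6 mutant libraries lay below the control libraries, and the libraries of both mutants lay between 1446 and 1522. Its level fell by 30.7% in Ins/Ins (log2 fold change -0.53, SE 0.0370, adjusted p = 1.3e-15) and fell by 32.3% in Ins/Del (log2 fold change -0.56, SE 0.0372, adjusted p = 1.8e-16). The mutants did not differ past the threshold (log2 difference -0.03, 95% interval -0.11 to 0.05).

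The gene of the second receptor, *Fgfr2*, which in the blastocyst marks cells turning to primitive endoderm, was the member that fell most in Ins/Del. Control libraries held 859, 820.2, and 859.6 normalized counts, Ins/Ins libraries 425, 499, and 448, and Ins/Del libraries 334, 319, and 302. The 3 groups did not overlap, and all Ins/Del libraries were below all Ins/Ins libraries. From a control mean of 846 ± 22.6 (SD, n = 3), the level fell to 457 ± 37.7 (SD, n = 3) in Ins/Ins (log2 fold change -0.89, SE 0.0610, adjusted p = 5.5e-16) and to 319 ± 16.2 (SD, n = 3) in Ins/Del (log2 fold change -1.41, SE 0.0650, adjusted p = 2.0e-21). Tested directly, Ins/Del was 30.3% lower than Ins/Ins (log2 fold change -0.51, SE 0.0713, adjusted p = 9.3e-07). The summed level of the primitive endoderm markers, which in control came mostly from *Dab2*, did not share this order and was lowest in Ins/Ins.

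The inhibitor genes fell by about the same amount in Ins/Ins, apart from *Spry4*, which changed less. *Spry2* encodes a Sprouty protein, an inhibitor of receptor signalling upstream of ERK. In control it had 3415, 3305, and 3221 normalized counts, in Ins/Ins 1806, 1795, and 1662, and in Ins/Del 1834, 1886, and 1723. All mutant libraries were below all control libraries, and the libraries of both mutants overlapped each other. Its mean fell by 47.1% in Ins/Ins (log2 fold change -0.92, SE 0.0385, adjusted p = 1.1e-22) and fell by 45.3% in Ins/Del (log2 fold change -0.87, SE 0.0384, adjusted p = 5.1e-22), and the log2 difference between mutants was 0.05 (95% interval -0.03 to 0.13). *Spry2* lies on chromosome 14, where the median log2 fold change of the other 460 tested genes was -0.58 in Ins/Ins and -0.60 in Ins/Del. In steps of 10 Mb along that chromosome, the medians lay between -0.95 and -0.79 in Ins/Ins from 40 to 80 Mb, and at -0.26 (Ins/Ins) and -0.28 (Ins/Del) over the 17 tested genes in the step from 100 to 110 Mb that holds *Spry2*. The part of that shift in the *Spry2* result was not tested. For each of the other 9 genes, the median of the other tested genes of its chromosome lay within 0.06 of 0 on the log2 scale in both mutants.

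*Spry4* encodes a second Sprouty protein and behaved differently in the mutants. It had 3597, 3529, and 3302 normalized counts in control, 2324, 2174, and 2269.7 in Ins/Ins, and 3339.8, 3402, and 3131 in Ins/Del. The Ins/Ins libraries were below all others, while the Ins/Del libraries overlapped the control libraries. In Ins/Ins the level fell by 35.1%, from 3476 ± 154 to 2256 ± 75.7 (SD, n = 3 each, log2 fold change -0.62, SE 0.0374, adjusted p = 1.1e-17). In Ins/Del it was 3291 ± 142 (SD, n = 3), a log2 difference from control of -0.08 (95% interval -0.15 to -0.01, adjusted p = 0.0505). The direct comparison put Ins/Del 1.46-fold above Ins/Ins (log2 fold change 0.54, SE 0.0377, adjusted p = 7.3e-14), the largest difference between mutants among the 10 genes.

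*Spred1*, whose protein inhibits activation of RAF by RAS, had 3779, 3595, and 3896 normalized counts in control, 1981, 1974, and 1981 in Ins/Ins, and 1840.1, 1919, and 1805 in Ins/Del. Mutant libraries all lay at or under 1981, and control libraries all lay at or above 3595. Its level was 0.527 of the control level in Ins/Ins (log2 fold change -0.92, SE 0.0356, adjusted p = 6.6e-24) and 0.494 in Ins/Del (log2 fold change -1.02, SE 0.0359, adjusted p = 3.1e-25). Between the mutants the log2 difference was -0.09 (95% interval -0.17 to -0.01), which missed the threshold (adjusted p = 0.0879), although their libraries did not overlap.

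*Dusp6* encodes the cytoplasmic phosphatase that removes phosphate from ERK. Counts were 2715, 2522, and 2539 in control, 1345, 1354, and 1319 in Ins/Ins, and 1548, 1474, and 1487 in Ins/Del, all normalized. The 3 groups were fully separated, with Ins/Ins lowest. The mean fell by 48.3% in Ins/Ins (log2 fold change -0.95, SE 0.0390, adjusted p = 4.9e-23) and fell by 42.0% in Ins/Del (log2 fold change -0.79, SE 0.0385, adjusted p = 1.3e-20). Ins/Del stood 12.2% above Ins/Ins (log2 fold change 0.17, SE 0.0415, adjusted p = 0.00354), a difference that missed the threshold without Ins/Del library 1 (adjusted p = 0.0315), Ins/Ins library 1 (adjusted p = 0.0128), or Ins/Ins library 3 (adjusted p = 0.0201).

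The 2 ETS factor genes among the members moved in opposite directions. *Etv4* had 531, 492, and 527 normalized counts in control, 1201, 1214, and 1218 in Ins/Ins, and 1729, 1660.2, and 1724 in Ins/Del, the lines being separated in that order. From 517 ± 21.3 in control, its mean rose to 1211 ± 8.90 in Ins/Ins (log2 fold change 1.23, SE 0.0497, adjusted p = 3.7e-23) and to 1704 ± 38.2 in Ins/Del (log2 fold change 1.72, SE 0.0479, adjusted p = 1.3e-28, SD and n = 3 throughout). This was the largest change of any of the 10 genes in both mutants, and Ins/Del was 1.41-fold above Ins/Ins (log2 fold change 0.49, SE 0.0424, adjusted p = 2.3e-11). *Etv5*, which encodes a factor of the same subfamily, had 8088, 7829, and 7863 normalized counts in control, 6683, 6618, and 6644 in Ins/Ins, and 7034, 6906, and 6666 in Ins/Del. It fell by 16.1% in Ins/Ins (log2 fold change -0.25, SE 0.0285, adjusted p = 4.6e-10) and fell by 13.3% in Ins/Del (log2 fold change -0.21, SE 0.0285, adjusted p = 4.1e-08), the smallest of the falls called in each mutant, with no overlap between mutant and control libraries. The mutants overlapped each other (log2 difference 0.05, 95% interval -0.01 to 0.11).

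*Egr1*, a zinc finger gene switched on within minutes of ERK activation, was counted with the fewest reads of the 10 genes. The control libraries held 458, 397, and 385 normalized counts, the Ins/Ins libraries 236, 269, and 192, and the Ins/Del libraries 277, 272, and 271. All mutant libraries lay below all control libraries, and spread was wide within control and Ins/Ins and narrow within Ins/Del. Its level fell by 43.8% in Ins/Ins (log2 fold change -0.84, SE 0.0892, adjusted p = 1.2e-10) and fell by 34.0% in Ins/Del (log2 fold change -0.61, SE 0.0870, adjusted p = 1.0e-07). The log2 difference between mutants, 0.24 (95% interval 0.04 to 0.43), was not called (adjusted p = 0.0820). *Egr1* also responds to stress and handling, so the immediate early genes were counted beside it. Of 11 tested, 5 were lower and 1 higher in each mutant (median log2 fold change -0.39 in Ins/Ins and -0.55 in Ins/Del). The lower genes in both were *Egr1*, *Jun*, *Junb*, *Zfp36*, and *Dusp1*, and the higher gene was *Nr4a1*. Over all tested genes, 29.4% were lower and 29.0% higher in Ins/Ins, and 31.9% lower and 30.6% higher in Ins/Del. *Jun* fell from 466 to 144 and 106 normalized counts, while *Fos*, from the other family of AP-1 subunits and singled out after its values were seen, was not called (log2 fold change 0.45 and 0.36, adjusted p = 0.0144 and 0.0477), nor was *Ier2*, the most highly counted of the list (log2 fold change -0.12 and -0.10), which passed without control library 3 (adjusted p = 0.00184 and 0.00737). The part of handling in the *Egr1* result was not tested.

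**Figure D3:**
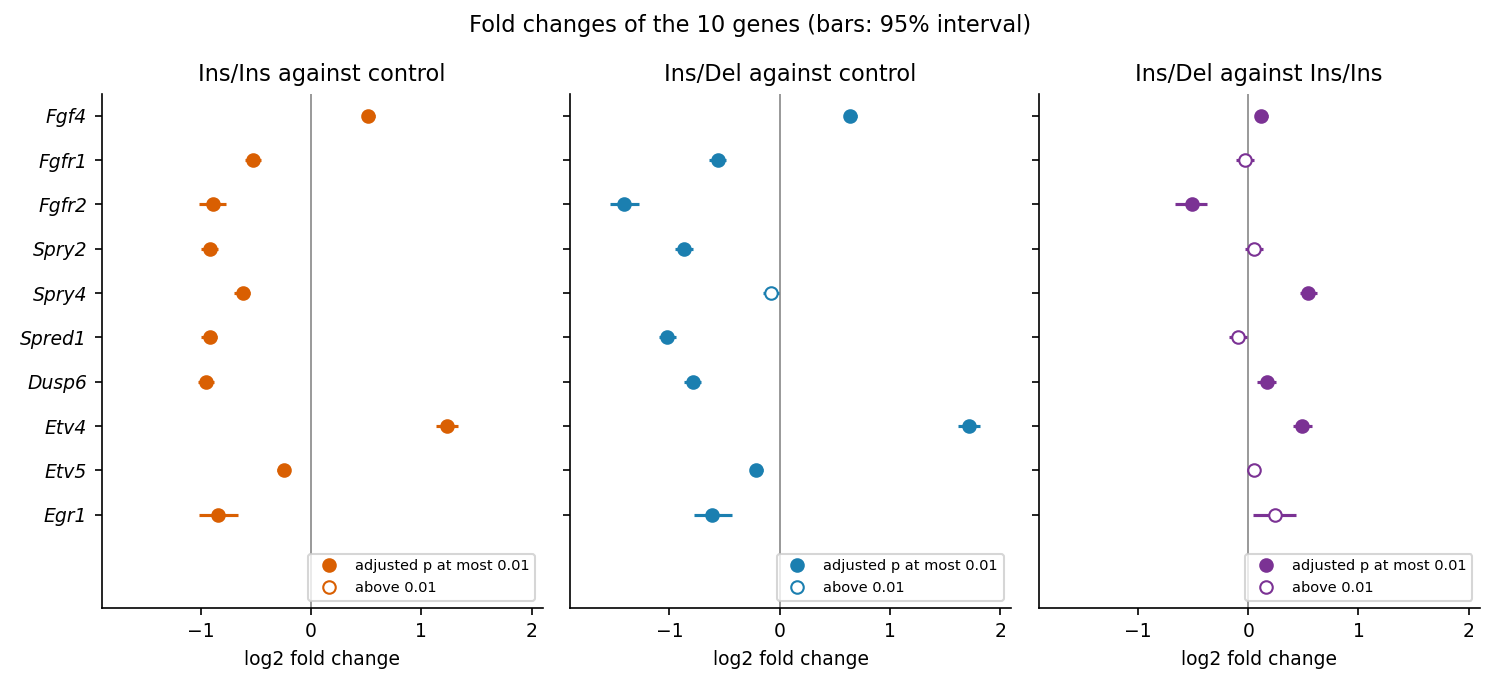
Log2 fold changes (horizontal axes) of the 10 genes for Ins/Ins against control, Ins/Del against control, and Ins/Del against Ins/Ins. Points are estimates and bars are 95% intervals. Filled points passed an adjusted p of 0.01 and open points did not. Only *Fgf4* and *Etv4* lie to the right of 0 in both comparisons with control, and *Fgfr2*, *Spry4*, and *Etv4* lie farthest from 0 between the mutants.

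Per kilobase of exon, which allows a rough comparison of levels between genes, *Etv5* was highest in control at 1932 ± 34.2 normalized counts per kilobase (SD, n = 3), ahead of *Spry2* (1588), *Fgf4* (1153), *Dusp6* (828), *Spry4* (731), *Spred1* (554), *Fgfr1* (221), *Etv4* (167), *Egr1* (92.2), and *Fgfr2* (81.9). No neighbours in that order overlapped between libraries. In Ins/Ins, *Fgf4* stood first at 1651 ± 12.6 per kilobase and *Etv5* next at 1620.4 ± 7.93 (SD, n = 3), and *Etv4* moved from the eighth to the sixth place at 390.1. The lowest pair, *Egr1* (51.8) and *Fgfr2* (44.3), overlapped there. In Ins/Del, *Fgf4* was again first at 1799 ± 11.4 per kilobase, *Etv4* took the fifth place at 549 ± 12.3, above *Dusp6* at 479.9 ± 12.5, and *Fgfr2* was last at 30.8 ± 1.57, with no overlap between neighbours. By this measure the ligand outranked *Etv5* in the mutants and not in control, and *Etv4* outranked *Dusp6* in Ins/Del alone. The length used takes in every annotated exon of a gene, whether or not these cells use it. Close ranks between genes, such as *Fgf4* and *Etv5* in Ins/Ins, are therefore not settled.

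**Figure D4:**
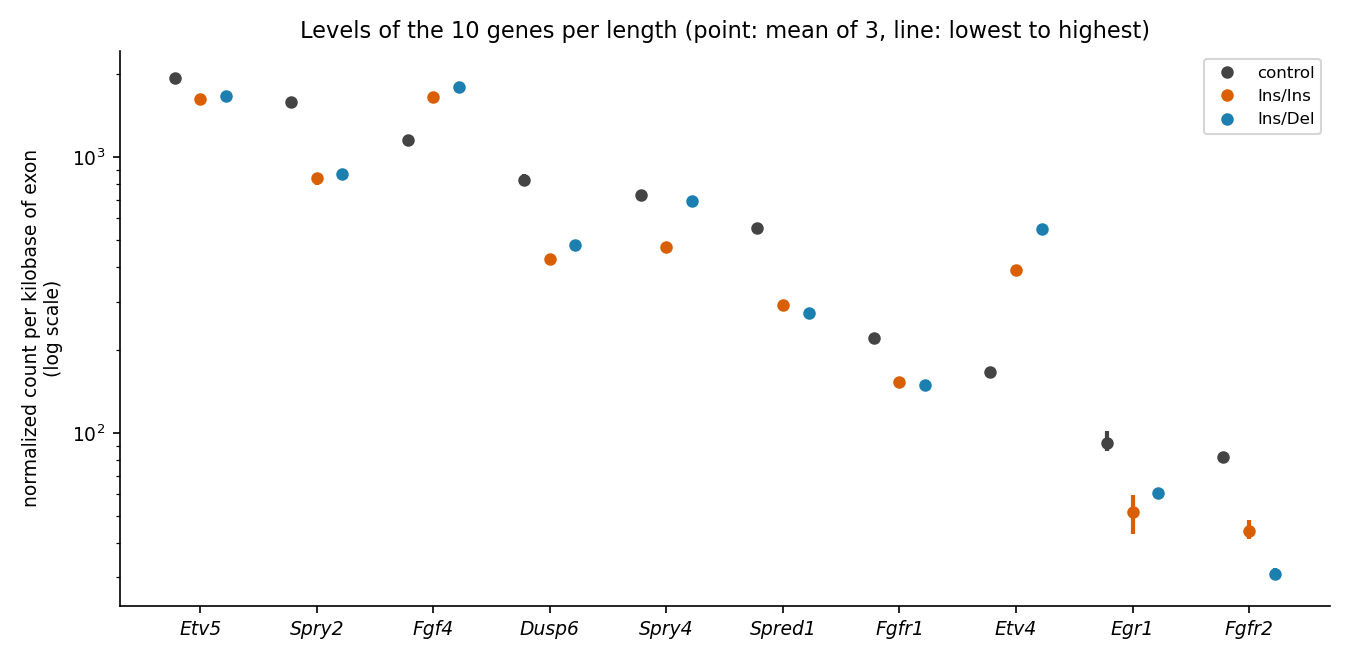
Normalized counts per kilobase of exon (vertical axis, log scale) of the 10 genes in the order of their control level, for control, Ins/Ins, and Ins/Del. Points are means of 3 libraries and lines run from the lowest to the highest library. *Fgf4* and *Etv4* are above control in both mutants, and *Fgfr2* is lowest in Ins/Del.

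Most of the other FGF ligand genes that were called were lower. Of 22 ligand genes listed, 13 were tested and the other 9 had at most 11 reads in any library. Of the 13, 2 were higher and 8 lower in Ins/Ins (median log2 fold change -1.08) and 2 higher and 6 lower in Ins/Del (median -0.34). *Fgf4* and *Fgf23* were the higher genes in both. For this list and those below, the shares to set beside the counts are those over all tested genes. They were 29.0% higher and 29.4% lower in Ins/Ins, and 30.6% higher and 31.9% lower in Ins/Del. *Fgf5*, a marker of the epiblast after implantation, was among the largest falls, from 213 ± 4.10 normalized counts in control to 15.6 ± 0.743 in Ins/Ins and 8.14 ± 1.74 in Ins/Del (SD, n = 3 each, log2 fold change -3.75 and -4.69). The FGF8 subfamily genes *Fgf8* and *Fgf17* fell too, with log2 fold changes of -2.47 and -3.80 in Ins/Ins and -3.50 and -3.48 in Ins/Del. The other gene of that subfamily, *Fgf18*, was called lower in Ins/Ins (log2 fold change -0.52) and was not called in Ins/Del (log2 fold change -0.34, adjusted p = 0.0741). *Fgf17* was the second most highly counted ligand gene in control, at 399.6 ± 43.3 normalized counts (SD, n = 3), and is one of the listed genes on chromosome 14, in the step from 70 to 80 Mb, whose median log2 fold change was -0.90 in Ins/Ins and -0.88 in Ins/Del. *Fgf15*, an endocrine FGF, fell from 291 to 36.3 and 36.1 normalized counts, though 24.9% of its exon length is shared with Gm26793 on the opposite strand. *Fgf13* and *Fgf14*, which encode intracellular members of the family that do not signal through the receptors, fell in both mutants, with log2 fold changes of -1.08 and -2.11 in Ins/Ins and -1.13 and -2.85 in Ins/Del. Of the other intracellular genes, *Fgf11* was not called in either mutant (log2 fold change 0.06 and -0.20, adjusted p = 0.815 and 0.416), and *Fgf12* had too few reads to be tested. *Fgf23* stayed at or under 15 reads in every library, and its calls were lost with DESeq2 (adjusted p = 0.0226 and 0.0115) and without control library 1 (adjusted p = 0.0401 and 0.0193), and in Ins/Ins also without control library 3 (adjusted p = 0.0128) or Ins/Ins library 2 (adjusted p = 0.0285). *Fgf6*, *Fgf16*, and *Fgf20* had at most 3 reads in every library.

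Among 7 receptor and coreceptor genes, 6 were tested. In Ins/Ins, *Fgfr1*, *Fgfr2*, *Fgfr3*, and *Fgfrl1* were lower and *Fgfr4* and *Klb* higher (list median log2 fold change -0.46). In Ins/Del the same genes were called in the same direction except *Fgfr3*, which was not (list median -0.38). *Fgfr4* rose from 20.7 ± 4.02 normalized counts to 84.6 ± 11 in Ins/Ins and 91.3 ± 18.4 in Ins/Del (SD, n = 3 each, log2 fold change 2.05 and 2.14). *Klb*, whose product is the coreceptor for endocrine FGFs, rose from 6.52 ± 2.04 to 30.5 ± 2.67 and 58.9 ± 6.55 (SD, n = 3 each, log2 fold change 2.20 and 3.14). Both stayed far below *Fgfr1* per kilobase: *Fgfr4* reached 25.8 and *Klb* 13.0 normalized counts per kilobase in Ins/Del, against 149 for *Fgfr1*. *Fgfr4* did come close to *Fgfr2*. In control they stood at 5.83 and 81.9 per kilobase. In Ins/Del their libraries overlapped, at 19.9 to 29.7 for *Fgfr4* and 29.2 to 32.4 for *Fgfr2*.

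Genes that make, trim, or carry heparan sulfate, the FGF coreceptor, were mostly lower. All 20 listed were tested, and 5 were higher and 12 lower in Ins/Ins and 6 higher and 12 lower in Ins/Del (median log2 fold change -0.57 and -0.64). The higher genes in both were *Ext2*, *Glce*, *Hs6st1*, *Sdc4*, and *Sulf2*. The sulfatase genes parted: *Sulf1* fell from 2737 ± 14.7 normalized counts to 571 ± 22.6 and 669.7 ± 63.0 (SD, n = 3 each, log2 fold change -2.26 and -2.04), while *Sulf2* rose from 4083 ± 66.6 to 5681 ± 74.5 and 6060.4 ± 167 (SD, n = 3 each, log2 fold change 0.48 and 0.57). Carriers parted as well. Syndecan *Sdc4* rose from 784 to 2351 and 1976 normalized counts (log2 fold change 1.59 and 1.34), whereas syndecan *Sdc2* and glypicans *Gpc4* and *Gpc6* fell, with log2 fold changes of -1.08, -1.85, and -1.67 in Ins/Ins and -1.21, -1.67, and -1.35 in Ins/Del. *Extl3*, a glycosyltransferase gene, fell to 0.494 and 0.461 of its control level, and it lies on chromosome 14 in the step from 60 to 70 Mb, where the median log2 fold change was -0.95 in Ins/Ins. *Hs6st1*, a sulfotransferase gene among the most highly counted of the list, changed by 0.13 and 0.12 on the log2 scale. Its calls were lost without control library 1 (adjusted p = 0.0120 and 0.0197), in Ins/Ins without Ins/Ins library 3 (adjusted p = 0.0287), and in Ins/Del without control library 3, Ins/Del library 2, or Ins/Del library 3 (adjusted p = 0.0157, 0.0227, and 0.0265).

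The adaptor and cascade genes were called in both directions, by small amounts. Of 23 adaptor and cascade genes, all tested, 9 were higher and 9 lower in Ins/Ins and 7 higher and 9 lower in Ins/Del (median log2 fold change -0.09 and -0.05), and none was called over 2-fold in both mutants. *Gab1*, a docking adaptor gene among the most highly counted of the list, rose from 6675 ± 192 normalized counts to 8089 ± 64.8 and 8381 ± 209 (SD, n = 3 each, log2 fold change 0.28 and 0.33).

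Most of the wider list of inhibitors was lower too. Of 16 listed, 15 were tested and *Spry3* had no reads. In Ins/Ins, 3 were higher and 12 lower, and in Ins/Del 3 were higher and 11 lower (median log2 fold change -0.62 and -0.53). Leaving out the 4 members, 8 of 11 were lower and 3 higher in each mutant (median -0.51 and -0.42). *Dusp4*, which encodes a nuclear phosphatase of ERK, fell most, from 1203 ± 75.3 normalized counts to 238 ± 23.2 in Ins/Ins and 202 ± 13.6 in Ins/Del (SD, n = 3 each, log2 fold change -2.33 and -2.58). *Il17rd*, whose product, also called Sef, inhibits FGF signalling, fell from 2881 ± 123 to 1384 ± 41.7 and 1334 ± 42.0 (SD, n = 3 each, log2 fold change -1.06 and -1.11). It also lies on chromosome 14, in the step from 20 to 30 Mb, where the medians were -0.06 and -0.12. The 3 higher inhibitors were *Dusp9*, *Spred2*, and *Nf1*. *Dusp9*, an ERK phosphatase gene, rose from 2438 ± 54.6 to 3608 ± 147 and 4158 ± 26.2 (SD, n = 3 each, log2 fold change 0.56 and 0.77), so that *Dusp6* and *Dusp9* changed in opposite directions in both mutants.

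Of 12 ERK target genes listed, 11 were tested, with 1 higher and 6 lower in Ins/Ins and 1 higher and 5 lower in Ins/Del (median log2 fold change -0.25 and -0.21). *Etv4* was the higher gene. The third factor of its subfamily, *Etv1*, fell from 498 ± 16.3 normalized counts to 232 ± 11 and 247 ± 3.29 (SD, n = 3 each, log2 fold change -1.10 and -1.01). *Etv5*, *Egr1*, *Ccnd1*, and *Phlda1* fell in both as well, although *Ccnd1* and *Phlda1* share 23.4% and 33.0% of their exon length with genes on the opposite strand. *Myc*, singled out after its values were seen, had calls like those of *Spry4*: it fell in Ins/Ins (log2 fold change -0.53, SE 0.0513, adjusted p = 1.3e-11), was not called in Ins/Del (log2 fold change -0.10, SE 0.0493, adjusted p = 0.0805), and differed between the mutants (log2 fold change 0.43, SE 0.0519, adjusted p = 5.5e-08). *Mcl1*, the most highly counted gene of the list, was not called in either mutant (log2 fold change 0.04 and 0.07), and passed in Ins/Del without control library 3 (adjusted p = 0.00467) and with DESeq2 (adjusted p = 0.00583).

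**Figure D5:**
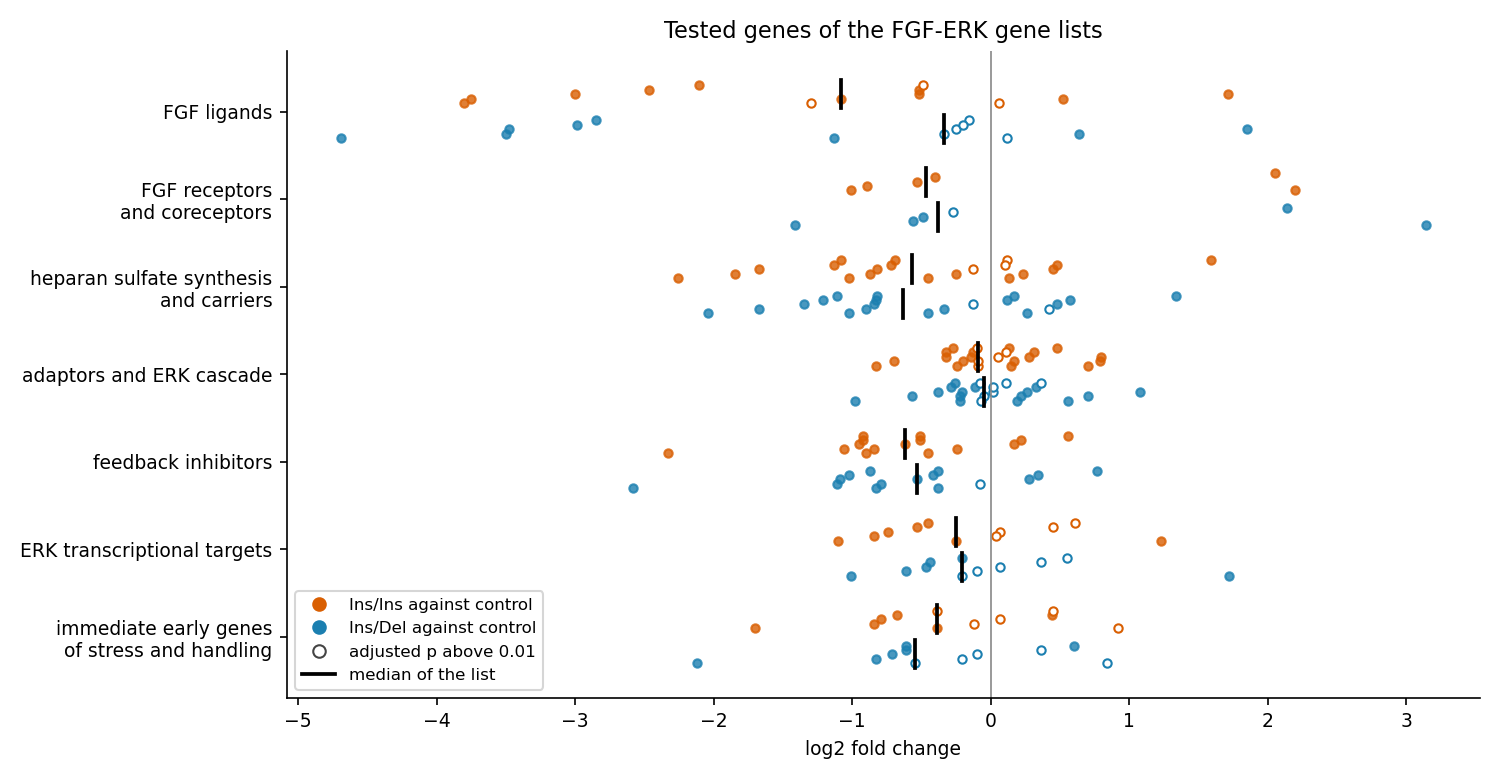
Log2 fold changes (horizontal axis) of every tested gene of 7 FGF-ERK gene lists, for Ins/Ins and Ins/Del against control. Each point is 1 gene, open points did not pass an adjusted p of 0.01, and black bars are list medians. The adaptor and cascade genes lie close to 0 with medians of -0.09 and -0.05, and the ligands spread most widely.

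To place the 10 genes among all others, each was compared over the 9 libraries with 12711 tested genes that had a mean above 20 normalized counts, by Pearson's r of log2 CPM. The libraries fall into 3 groups, so r here mostly reads the order of the group means, and it is given as a description. For 8 of the 10 genes, between 1823 (*Etv5*) and 2584 (*Fgf4*) other genes had r above 0.9. *Egr1* had 624 such genes, led by *Zfp185*, *Hnrnpab*, and *Bves* (r = 0.983, 0.981, and 0.979). *Spry4* had 46, led by *Zfp977*, *Glul*, and *Ceacam1* (r = 0.982, 0.980, and 0.979), the fewest of the 10. The genes most like *Fgf4* were *Bicral*, Gm21761, and *Rhox5*, and those most like *Etv4* were *Arntl2*, *Zscan4f*, and *Ermp1* (r = 0.998 to 0.999), of which *Zscan4f* belongs to a family of near-identical copies whose reads could be split in counting. For *Fgfr1* they were *Adgrl2*, *Neurod1*, and *Ttc5*, for *Fgfr2* *Shb*, *Hnrnpr*, and *Atxn1l*, for *Spry2* *Thbs1*, *Ajuba*, and *Chtf8*, for *Spred1* *Soat1*, *Fbxl20*, and *Iqgap2*, and for *Etv5* *Dtx3l*, *Myo10*, and *Itpr1*, with r between 0.991 and 0.999. No member was among the 3 genes most like another member, places for which many genes with high r competed. Members still correlated closely with each other, such as *Spry2* with *Dusp6* and *Fgf4* with *Etv4* (r = 0.99 each). *Fgf4* and *Etv4* had negative r with every other member, and *Spry4* had an r of 0.25 with *Fgfr2*.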

How the data were processed

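RNA-seq covered 3 control, 3 Ins/Ins, and 3 Ins/Del samples, and libraries were grouped by their genotype label. The deposited values are whole-number read counts per gene symbol, which the authors made from paired-end reads of poly(A) libraries aligned to mm10 with STAR 2.7.3 and counted with HTSeq, and which they tested with DESeq2 1.22.2. The HTSeq version, its strand setting, and the annotation are not given in the sources used here. TMM factors, the filterByExpr filter, and the quasi-likelihood fit were computed from these counts with edgeR 4.0.16 (R 4.3.3) over all 9 libraries without covariates. P-values were Benjamini-Hochberg adjusted over 14125 genes and called at 0.01. Normalized counts are counts scaled to the mean effective library size, and levels per kilobase divide them by the merged length of all exons of the gene in GENCODE M21. The script was tested on simulated counts. The replicate numbers share no stated origin between lines. Alternatives were DESeq2 1.42.0, its size factors or total counts for scaling, no filter, the compared groups alone, a replicate block, each library left out, a limit of 0.05, and a test against a 1.5-fold change. All 10 genes are named with every library. Listed genes are named when called over 2-fold in the same direction in both mutants or when among the 2 most highly counted of their list, and, chosen after their values were seen, when they make up a count of 5 or fewer or complete a named subfamily. Some genes that these rules name are not reported here. The members and lists were chosen with earlier results of these data known.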

Additional observations from a re-analysis of the deposited data

Results flagged for a closer look

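Of the 10 genes, 5 had an effect that differed between the 2 mutant lines when the difference itself was tested (edgeR, adjusted over 14125 genes), beside 10.8% of all tested genes. On the log2 scale, Ins/Del minus Ins/Ins was 0.54 for *Spry4* (adjusted p = 7.3e-14), -0.51 for *Fgfr2* (adjusted p = 9.3e-07), 0.49 for *Etv4* (adjusted p = 2.3e-11), 0.17 for *Dusp6* (adjusted p = 0.00354), and 0.12 for *Fgf4* (adjusted p = 0.00159). The call on *Fgf4* was lost without Ins/Del library 3 (adjusted p = 0.0121) or Ins/Ins library 1 (adjusted p = 0.0106), and that on *Dusp6* without Ins/Del library 1 (adjusted p = 0.0315), Ins/Ins library 1 (adjusted p = 0.0128), or Ins/Ins library 3 (adjusted p = 0.0201). The 10.8% stands for 1527 genes, which fell to 988 without Ins/Del library 2. For each of the 5, all 3 Ins/Del libraries lay on one side of all 3 Ins/Ins libraries. The same held for *Fgfr1*, *Spred1*, and *Egr1*, which were not called between the mutants, so this separation does not set the 5 apart. The share of all tested genes separated in this way was not computed. The lines carry different *Rbbp4* genotypes and are different clones, which cannot be told apart here.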

How the results depend on the processing

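No member's log2 fold change changed sign in any of the 17 alternatives, and against control no call on a member was lost except in the test against a 1.5-fold change. Lost in that test were the calls on *Fgf4*, *Fgfr1*, and *Etv5* in both mutants, on *Spry4* in Ins/Ins, and on *Egr1* in Ins/Del. That test called 1 member higher and 5 lower in Ins/Ins, 1 higher and 4 lower in Ins/Del, and 0 higher and 0 lower between the mutants, and 2399, 2875, and 14 genes in all, where the test against no change called 8252, 8829, and 1527. This test, edgeR's glmTreat, asks for a larger change by its construction, and between the mutants 0 members had an unadjusted p under 0.05 in it, where DESeq2, tested against no change, called 5. Between the mutants, 2682 genes were called at an adjusted p of 0.05, and DESeq2 called 423 genes lower in Ins/Del where edgeR called 655. Leaving out each library in turn gave 7642 to 8278 genes in Ins/Ins, 8134 to 8986 in Ins/Del, and 988 to 1646 between the mutants, of which the 988 came without Ins/Del library 2 and 1014 without Ins/Ins library 1. Members called higher in Ins/Del than in Ins/Ins then numbered 2 to 4, with 2 without Ins/Ins library 1. With the replicate number as a replicate block, 8225, 8795, and 1499 genes were called and no call on a member changed. Same-numbered libraries of different lines deviated together with r of -0.0277 to 0.0559, and differently numbered libraries with r of -0.0566 to 0.0619. Such an r over all genes cannot show whether single genes share a replicate effect. *Ier3*, picked after its values were seen, was highest in library 3 of every line. Its normalized counts there were 512 in control, 531 in Ins/Ins, and 439 in Ins/Del, against at most 346, 360, and 303 in the other libraries. Without division by length, *Etv5* ranked first in all 3 lines and *Spred1* ranked second in control. Depth left 9 of 22 ligand genes untested, and *Fgf6*, *Fgf16*, and *Fgf20* had at most 3 reads in every library.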
